A study of Homo sapiens with 6 samples.

Results

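The 38 genes described here carry glucose and lactate across the cell membrane, run glycolysis, govern the entry of pyruvate into mitochondria, or belong to the response to low oxygen. They were chosen by name as a panel of these functions, and all 38 were found among the 19922 genes that both deposited tables hold. They comprised 2 glucose transporters, 17 glycolytic enzymes, 2 fructose 2,6-bisphosphate enzymes, 2 lactate transporters, 5 genes of pyruvate dehydrogenase and its kinases, the HIF subunit gene HIF1A and 9 other hypoxia targets. Of the 38, 37 passed the filter on low counts, and CA9 had 0 reads in all 6 libraries. The study measured total RNA by sequencing in HEK293A cells, a derivative of the human embryonic kidney line HEK293. In the knockdown group, 3 libraries came from cells given siRNA against UBE2A and UBE2B, the human RAD6 genes, at the labelled 25 uM of each and 50 uM in total, and collected after 48 h. In the control group, 3 libraries came from cells that received vehicle and no siRNA. Both groups were seeded at 10000 cells per cm2 in 60 mm dishes in medium of 10% serum with 1% antibiotics, and transfected after 18 to 24 h of growth. The labels describe no low-oxygen treatment. They describe no non-targeting siRNA either, so an effect of siRNA delivery as such and one of losing the targets cannot be told apart. The labels do not say whether the libraries of a group came from separate cultures, so the p-values cover the spread among these 6 libraries alone, and that spread may be technical.

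Glycolysis splits glucose into pyruvate through a fixed order of enzymes, and most of these enzymes exist as isozymes encoded by separate genes. Pyruvate is either reduced to lactate by lactate dehydrogenase and exported by monocarboxylate transporters, or enters the mitochondrion through the pyruvate dehydrogenase complex, which pyruvate dehydrogenase kinases switch off by phosphorylation. When oxygen is scarce, hypoxia-inducible factor (HIF) escapes the prolyl hydroxylases that mark it for degradation, and it raises transcription of many glycolytic genes as well as of genes for blood vessel growth, mitophagy and matrix synthesis. Transformed lines such as HEK293 are known for a high rate of glycolysis with oxygen present. UBE2A and UBE2B are paralogous ubiquitin-conjugating enzymes whose known substrates include histone H2B and PCNA.

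Between 10887217 and 14564624 reads were assigned to genes per library, and 3 reads, taken as the floor, were worth 0.206 to 0.276 CPM (counts scaled to library size). Replicates 1 and 2 of each group came in the first table, and 1 further library of each group, without a replicate number, came in the second. The first principal component separated the tables and took 56.1% of the variance, so the fit carried the table as a term beside the group. UBE2A had 51.9, 57.6 and 49.0 CPM in knockdown libraries, against 99.5, 97.9 and 105 CPM in controls, and its log2 fold change was -0.93 (SE 0.07, edgeR adjusted p = 1.64e-12). UBE2B had 51.9, 55.0 and 45.9 CPM in knockdown libraries, against 63.0, 64.0 and 61.2 CPM in controls, with a log2 fold change of -0.30 (SE 0.07, edgeR adjusted p = 0.0128). Over all 13629 genes tested, 336 passed an adjusted p of 0.05, which is 2.47% of them. The embryonic kidney and HEK293 markers summed to 1292 to 1641 CPM in knockdown cells and 1634 to 1817 CPM in controls, and none of these 10 markers was at 0. Of that list, the keratins KRT8 (log2 fold change -0.31, edgeR adjusted p = 0.000555) and KRT18 (-0.34, adjusted p = 0.000292) fell, and the kidney factor PAX8 was too low to test. The 8 fibroblast, 6 leukocyte and 5 endothelial markers summed to at most 54.7, 3.81 and 7.25 CPM in any library, PTPRC, CD3E, CD68 and FAP were at 0, and 0 of the 5 markers tested in these lists passed, at the unadjusted p under 0.05 or with DESeq2 or limma-voom either. The part of the keratin decrease in the results was not tested.

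In control cells the levels of the glycolytic genes differed widely, as judged by FPKM, a level scaled by gene length and library total. The panel lists no isozyme of GPI, TPI1, GAPDH, PGK1, PGAM1 or PKM, so isozyme use at those steps was not examined. GAPDH, which oxidises glyceraldehyde 3-phosphate, stood highest at 491 ± 18.8 FPKM (SD, n = 3, as for all levels below). ENO1, the main enolase, followed at 396 ± 15.4 FPKM, and TPI1, triosephosphate isomerase, at 349 ± 27.1 FPKM. Each of these exceeded the next in every control library, as did PGAM1, phosphoglycerate mutase, at 199 ± 8.58 FPKM. PKM, pyruvate kinase, at 157 ± 5.15 FPKM and LDHA, the muscle-type lactate dehydrogenase subunit, at 148 ± 6.31 FPKM had overlapping ranges. PKM was still above LDHA in each control library (153, 163 and 154 against 142, 154 and 148 FPKM). PGK1, phosphoglycerate kinase, was next at 102.8 ± 6.003 FPKM, above the remaining genes in all 3 controls. Enzymes of the first steps were lower, with HK1, the hexokinase that starts glycolysis, at 32.6 ± 1.87 FPKM and GPI, glucose-6-phosphate isomerase, at 22.1 ± 1.57 FPKM. Between GPI and PFKM, each gene's control values overlapped those of the next in order: GPI, PDK3, BNIP3L, PFKP, PFKL and HIF1A averaged between 19.8 and 22.1 FPKM.

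**Figure D1:**
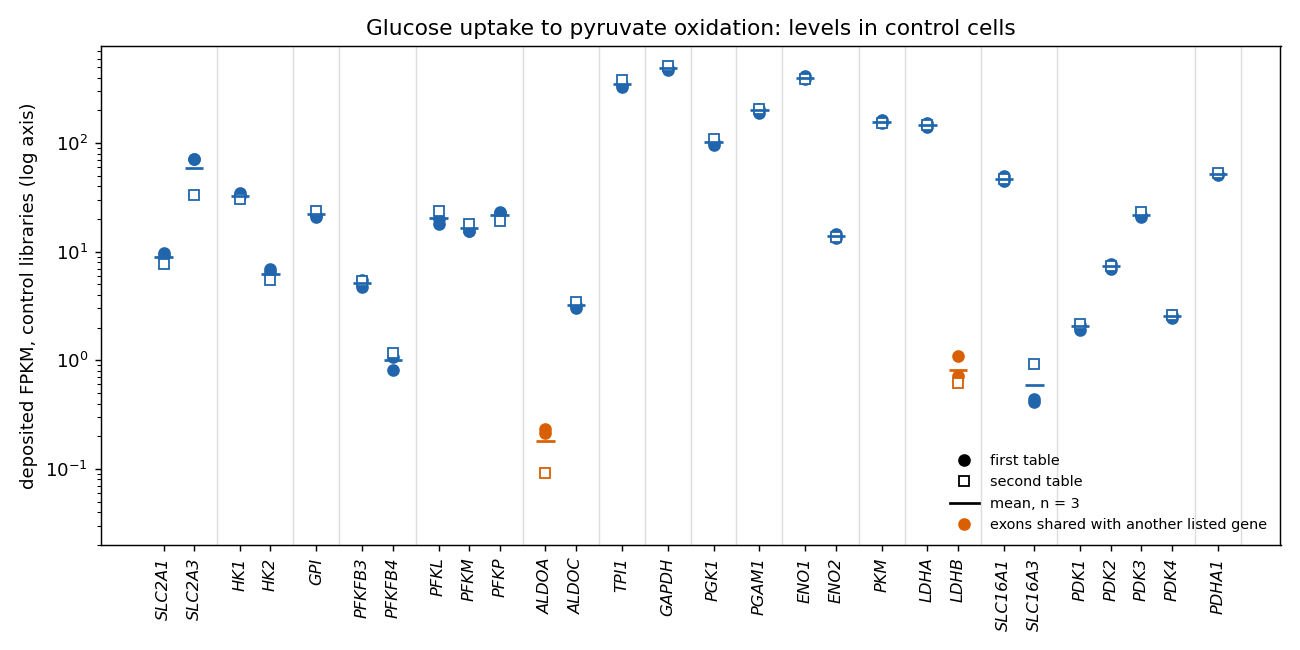
Levels in the 3 control libraries, as FPKM on a log axis for the transporters and enzymes in pathway order. Points are libraries (circles, first table; squares, second) and lines are means; GAPDH, ENO1 and TPI1 lie at the top, and ALDOA and LDHB, in orange, near the bottom.

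Isozyme use was uneven in the controls. SLC2A3, a high-affinity glucose transporter best known from neurons, averaged 58.6 ± 22.2 FPKM, against 8.90 ± 1.05 FPKM for SLC2A1, the ubiquitous basal transporter. HK1 made up 83.9 ± 1.197% of the summed FPKM of HK1 and HK2, the inducible hexokinase. The 3 phosphofructokinase genes, whose product commits glucose to glycolysis, were close, with PFKP at 21.8 ± 2.25, PFKL at 20.5 ± 2.99 and PFKM at 16.4 ± 1.54 FPKM. The ranges of neighbours in that order overlapped. PFKP was above PFKL in the first-table controls and below it in the second-table control (19.3 against 23.8 FPKM), and PFKL was above PFKM in each control. ENO1 made up 96.6 ± 0.254% of the enolase FPKM, the rest being ENO2, the neuronal enolase. The lactate and proton carrier SLC16A1 held 98.8 ± 0.594% of its pair with SLC16A3, the exporter typical of highly glycolytic cells. Among the kinases, PDK3 led with 22.0 ± 1.1 FPKM, then PDK2 with 7.36 ± 0.382, PDK4 with 2.55 ± 0.104 and PDK1 with 2.06 ± 0.129 FPKM. BNIP3L, a mitophagy receptor, at 21.9 ± 1.90 FPKM exceeded its relative BNIP3 at 10.4 ± 1.151 FPKM. The HIF prolyl hydroxylases were low and overlapped, with EGLN1 at 2.34 ± 1.30 and EGLN3 at 1.63 ± 0.407 FPKM. These levels depend on the listed gene lengths, which differ from GENCODE 29 for some members: PDK3 is listed with 17456 and 13506 bases in the tables, against 4951 exonic bases in that annotation, PFKP with 7728 against 4836 and SLC2A1 with 6614 against 4724.

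For 2 steps the near-absence of a gene coincided with shared exons. ALDOA, the main aldolase of muscle and most cells, had 13, 13 and 17 reads in knockdown libraries, against 12, 12 and 4 reads in controls. In GENCODE 29, 42.3% of its exonic bases lie in exons of the protein-coding gene AC093512.2 on the same strand, which itself had 45, 44 and 54 reads in knockdown libraries and 47, 39 and 35 in controls. LDHB, the heart-type lactate dehydrogenase subunit, had 42, 34 and 22 reads in knockdown libraries and 48, 29 and 21 in controls. It shares 33.4% of its exonic bases with AC010197.2, also on the same strand, which had 0, 0 and 0 reads in knockdown libraries and 1, 2 and 0 in controls. The part of the shared exons in these low counts was not tested, and neither the counts nor the shares of these 2 genes are read as levels of aldolase or of lactate dehydrogenase B. ALDOC, the brain-type aldolase, was measured at 3.24 ± 0.216 FPKM. Members also overlap genes on the opposite strand: PDK2 shares 38.6% of its exonic bases with SAMD14, CA9 38.5% with ARHGEF39, PDHA1 21.3% with MAP3K15 and GAPDH 14.2% with an antisense RNA. Whether the counting used strand is not given in the sources used here, so reads in those stretches cannot be assigned. Several glycolytic genes, GAPDH, PGK1, PGAM1, LDHA and ENO1 among them, have processed pseudogenes that resemble their mRNA, and how reads with several matches were treated is not given either.

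The promoters of 33 members, in 62 RefSeq windows of 300 bases (250 before and 50 after a gene's start, GRCh38.p14), were searched on both strands for ACGTG and GCGTG, the core letters that HIF binds. ACGTG stood in 24 windows, or 38.7%, against 7518 of all 35116 windows, or 21.4%, and GCGTG stood in 25 windows, or 40.3%, against 36.5% of all windows. A gene can have several windows, some of them overlapping, so windows are not independent of each other. By gene, with a match in any window counted, ACGTG stood in 20 of the 33 members, against 6790 of 27305 genes. The 33 members had 62 windows and the 27305 genes 35116, so members had more windows per gene in which to match. A palindromic CACGTG holds ACGTG on each strand and counts as 2 matches. Among 37 windows of glycolytic enzymes 40.5% held ACGTG and 37.8% held GCGTG. Among 6 windows of other hypoxia targets, from 6 of the 9 genes, 66.7% held ACGTG and 33.3% held GCGTG. The 250 bases before the start are printed for LDHA and ENO1, glycolytic genes that fell after knockdown, for BNIP3, a hypoxia target that did not pass, and for PDK4, the member that rose. Capitals mark the matches, on either strand, and a match is a description of the letters only.
LDHA, chr11:18394313-18394562, plus strand: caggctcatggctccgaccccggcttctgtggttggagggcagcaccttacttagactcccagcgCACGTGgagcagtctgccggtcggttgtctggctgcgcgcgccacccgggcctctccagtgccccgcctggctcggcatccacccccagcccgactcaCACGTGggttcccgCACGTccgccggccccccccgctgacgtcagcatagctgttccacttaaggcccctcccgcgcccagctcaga
ENO1, chr1:8878687-8878936, minus strand: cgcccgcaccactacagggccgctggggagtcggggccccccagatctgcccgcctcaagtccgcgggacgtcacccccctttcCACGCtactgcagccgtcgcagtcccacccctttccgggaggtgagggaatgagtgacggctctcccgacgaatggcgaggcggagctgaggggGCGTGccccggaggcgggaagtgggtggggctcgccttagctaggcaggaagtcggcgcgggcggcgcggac
BNIP3, chr10:131981924-131982173, minus strand: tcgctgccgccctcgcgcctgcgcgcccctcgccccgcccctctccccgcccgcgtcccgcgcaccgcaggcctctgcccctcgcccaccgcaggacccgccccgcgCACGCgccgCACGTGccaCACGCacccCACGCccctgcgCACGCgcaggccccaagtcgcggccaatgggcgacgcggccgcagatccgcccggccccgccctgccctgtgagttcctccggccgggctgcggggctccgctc
PDK4, chr7:95596517-95596766, minus strand: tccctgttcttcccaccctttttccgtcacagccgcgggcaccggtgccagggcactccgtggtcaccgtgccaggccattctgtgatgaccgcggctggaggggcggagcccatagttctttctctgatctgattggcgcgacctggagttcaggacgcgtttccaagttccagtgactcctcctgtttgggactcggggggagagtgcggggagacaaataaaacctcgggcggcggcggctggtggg
The 250 bases printed for LDHA held 5 matches to ACGTG and none to GCGTG, while its full window, with 50 bases more, held 1 to GCGTG, as did the other LDHA window. Those of ENO1 held 2 matches to GCGTG, and those of BNIP3 held 2 to ACGTG and 4 to GCGTG. Those of PDK4 held neither.

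After knockdown, 6 of the 37 members tested fell, 1 rose and 30 did not pass. Those that fell were the glucose transporters SLC2A1 and SLC2A3, the glycolytic enzymes PFKP, ENO1 and LDHA, and the lactate transporter SLC16A1, with decreases of 12.7% to 19.2%. PDK4, a kinase that inhibits pyruvate dehydrogenase, rose by 38.8%. In these bulk libraries, fewer cells of one kind and less RNA per cell cannot be told apart. Among all genes tested, 1.83% fell and 0.638% rose. Of the members 26 had a negative and 11 a positive log2 fold change, with a median of -0.10, against 49.4% negative and a median of 0.0026 over all genes tested. In 20 members the difference was negative in both tables, against 29.4% of all genes. At an unadjusted p under 0.05 there were 15 members, against 14.1% of all genes. Without the table term, edgeR called 0 of the 13629 genes (327, or 2.4%, at an unadjusted p under 0.05) and 0 members, of which 4 had an unadjusted p under 0.05. With the table term DESeq2 called 5 members lower and 0 higher. The count of members lower became 0 on leaving out knockdown replicate 1 or control replicate 2, and 1 on leaving out a second-table library of either group.

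**Figure D2:**
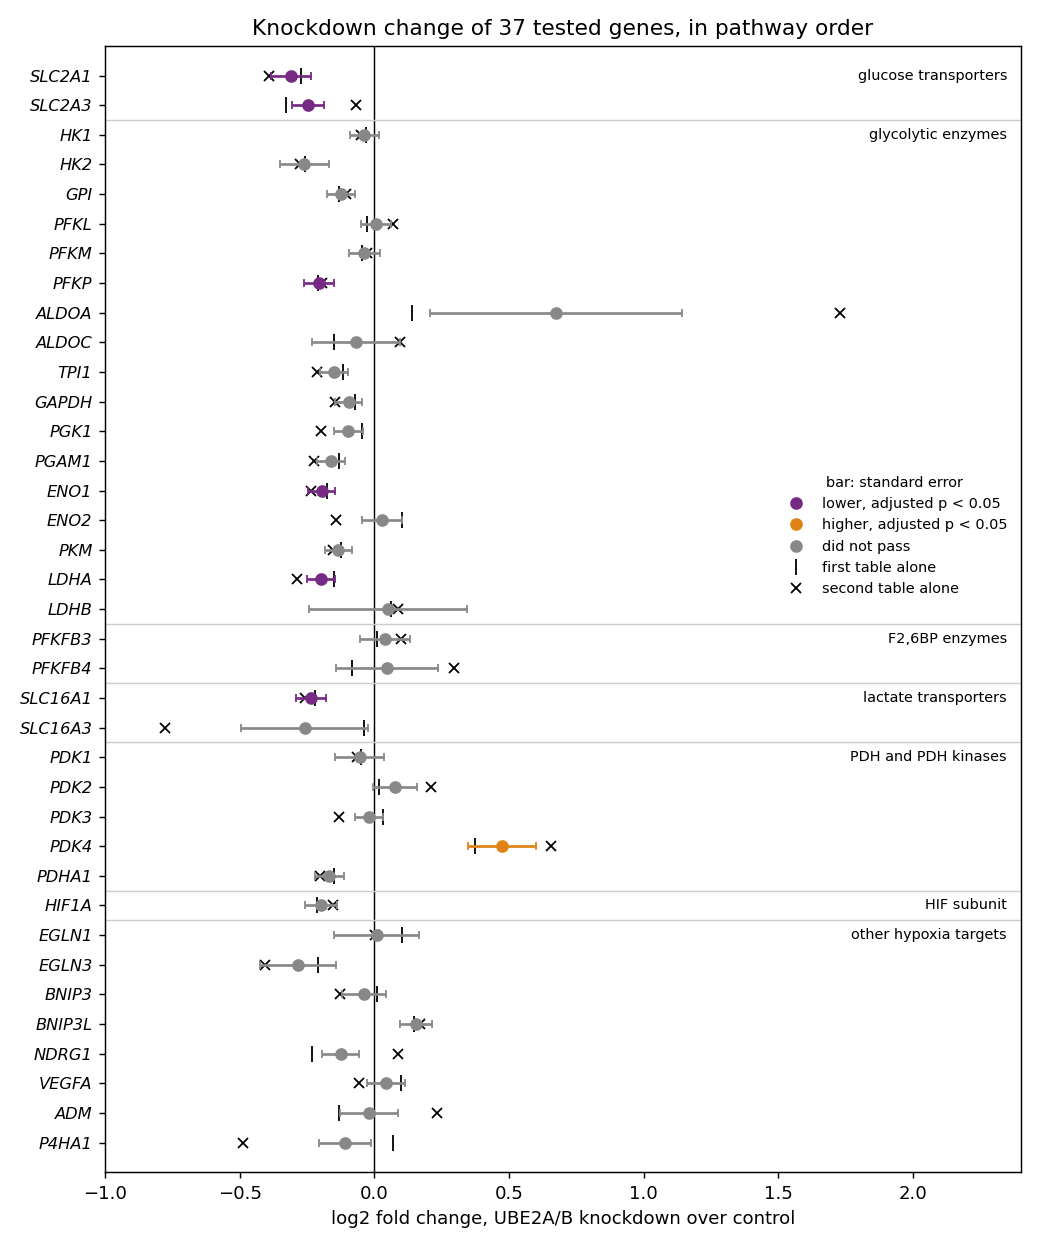
Log2 fold change of each member, knockdown over control, from the fit with the table term, with bars of 1 SE, members ordered by role, and ticks and crosses for each table alone. The 6 members that fell and PDK4, which rose, are marked as passing an adjusted p of 0.05; the glycolytic enzymes lie mostly left of 0.

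Both glucose transporters fell. Per-library values run replicate 1, replicate 2, second table throughout. SLC2A1 (ENSG00000117394, chromosome 1, 42925353 to 42958893, minus strand, on hg38) had 49.6, 55.4 and 39.0 CPM in knockdown libraries, against 61.7, 65.1 and 51.2 CPM in controls. It averaged 48.0 ± 8.28 CPM in knockdown cells and 59.4 ± 7.24 CPM in controls (SD, n = 3 each), with a log2 fold change of -0.31 (SE 0.07, edgeR adjusted p = 0.0133). The groups overlapped over all 6 libraries, while within each table the knockdown values lay below the controls. Such a pattern is common: 13.9% of all genes tested were lower and 12.1% higher within each table. Among the 37 members tested, 14 were lower and 3 higher in that sense. SLC2A3 (ENSG00000059804, chromosome 12, 7919230 to 7936187, minus strand) had 322, 376 and 192 CPM in knockdown libraries, against 436, 439 and 201 CPM in controls. It averaged 297 ± 94.97 CPM in knockdown cells and 359 ± 137 CPM in controls (SD, n = 3 each). The log2 fold change was -0.25 (SE 0.06, edgeR adjusted p = 0.0120), with -0.33 within the first table against -0.07 within the second, where both groups had the lower CPM. Leaving out single libraries ended these calls in some cases, with an adjusted p for SLC2A1 of 0.170 (knockdown replicate 1), 0.151 (the second-table knockdown library), 0.121 (control replicate 2) and 0.144 (the second-table control library), the library left out being named. For SLC2A3 it was 0.304 (knockdown replicate 1) and 0.155 (control replicate 2).

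At the first steps of glycolysis only PFKP passed. PFKP, the platelet-type phosphofructokinase (ENSG00000067057, chromosome 10, 3066333 to 3137718, plus strand), had 148, 164 and 131 CPM in knockdown libraries, against 181, 179 and 149 CPM in controls, and averaged 148 ± 16.8 CPM in knockdown cells and 170.0 ± 17.9 CPM in controls (SD, n = 3 each). Knockdown values were lower within each table, with log2 differences of -0.21 and -0.19, although the groups overlapped over both tables. Its log2 fold change was -0.20 (SE 0.06, edgeR adjusted p = 0.0359), but DESeq2 gave an adjusted p of 0.0670. By the library left out, the adjusted p was 0.320 (knockdown replicate 1), 0.171 (the second-table knockdown library), 0.0734 (control replicate 1), 0.165 (control replicate 2) and 0.156 (the second-table control library). HK1 had 200.4, 217 and 188 CPM in knockdown libraries, against 206, 221 and 194 CPM in controls, and the groups overlapped (log2 fold change -0.04, SE 0.05, edgeR adjusted p = 0.828). HK2 had 29.5, 37.3 and 26.7 CPM in knockdown libraries, against 40.7, 38.7 and 32.4 CPM in controls, lower within each table, with a log2 fold change of -0.26 (SE 0.09, edgeR adjusted p = 0.138). The values were -0.12 for GPI (adjusted p = 0.275), 0.01 for PFKL (0.980) and -0.04 for PFKM (0.834), all log2 fold changes. PFKFB3 makes fructose 2,6-bisphosphate, the activator of phosphofructokinase, and had 29.3, 33.9 and 35.2 CPM in knockdown libraries, against 28.8, 34.0 and 32.9 CPM in controls. Its log2 fold change of 0.04 and that of PFKFB4, 0.05, did not pass (adjusted p = 0.900 and 0.946).

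Of the steps between aldolase and pyruvate kinase, ENO1 alone passed, and ENO1 fell. ALDOC had 7.04, 7.87 and 9.69 CPM in knockdown libraries, against 7.92, 8.63 and 9.06 CPM in controls, and its groups overlapped (-0.07, adjusted p = 0.903). TPI1 had 817, 863 and 885 CPM in knockdown libraries, against 879, 944 and 1026 CPM in controls (-0.15, adjusted p = 0.123), and GAPDH 1088, 1135 and 1108 CPM in knockdown libraries, against 1134, 1201 and 1225 CPM in controls (-0.10, adjusted p = 0.392). PGK1 was at -0.10 (adjusted p = 0.416). PGAM1 had 443, 478 and 448 CPM in knockdown libraries, against 483, 526 and 522 CPM in controls, with no overlap between the groups, and a log2 fold change of -0.16 (SE 0.05, edgeR adjusted p = 0.0990). ENO1 (ENSG00000074800, chromosome 1, 8861000 to 8879190, minus strand), whose printed promoter held 2 GCGTG matches, had 1814, 1917 and 1731 CPM in knockdown libraries, against 2021, 2194 and 2035 CPM in controls. Every knockdown library of ENO1 was below every control, and it averaged 1821 ± 93.4 CPM in knockdown cells and 2083 ± 95.9 CPM in controls (SD, n = 3 each). Its log2 fold change was -0.20 (SE 0.05, edgeR adjusted p = 0.0221). ENO2, at 60.9, 68.7 and 52.6 CPM in knockdown libraries and 62.5, 58.0 and 58.2 CPM in controls, had a log2 fold change of 0.03 (adjusted p = 0.916). PKM had 1221, 1291 and 1195 CPM in knockdown libraries, against 1319, 1417 and 1329 CPM in controls, again with no overlap, and -0.13 (adjusted p = 0.185). Groups that did not overlap over the 6 libraries were found for 5 members on the lower side (PGAM1, ENO1, PKM, LDHA and PDHA1) and 2 on the higher (ALDOA and PDK4), against 3.74% and 3.96% of all genes. By the library left out, the adjusted p of ENO1 was 0.180 (knockdown replicate 1), 0.253 (the second-table knockdown library), 0.339 (control replicate 2) and 0.227 (the second-table control library).

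LDHA and SLC16A1, genes of lactate production and of lactate export, fell. LDHA (ENSG00000134333, chromosome 11, 18394560 to 18408425, plus strand), which turns pyruvate into lactate, had 791, 832 and 734 CPM in knockdown libraries, against 857, 946 and 896 CPM in controls. The groups did not overlap, with 786 ± 49.0 CPM in knockdown cells and 899.6 ± 44.2 CPM in controls (SD, n = 3 each), and the log2 fold change was -0.20 (SE 0.05, edgeR adjusted p = 0.0273). SLC16A1 (ENSG00000155380, chromosome 1, 112911847 to 112957593, minus strand) had 250.4, 266 and 203 CPM in knockdown libraries, against 282, 321 and 243 CPM in controls, lower within each table. It averaged 240.0 ± 32.7 CPM in knockdown cells and 282 ± 38.7 CPM in controls (SD, n = 3 each), with a log2 fold change of -0.23 (SE 0.06, edgeR adjusted p = 0.0111). SLC16A3 had 5.39, 2.78 and 4.802 CPM in knockdown libraries, against 3.86, 4.13 and 8.35 CPM in controls, low values whose groups overlapped (-0.26, adjusted p = 0.688). With single libraries left out, the adjusted p of LDHA was 0.175 (knockdown replicate 1), 0.359 (the second-table knockdown library), 0.339 (control replicate 2) and 0.333 (the second-table control library). That of SLC16A1 was 0.132 (knockdown replicate 1), 0.129 (the second-table knockdown library), 0.260 (control replicate 2) and 0.116 (the second-table control library).

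**Figure D3:**
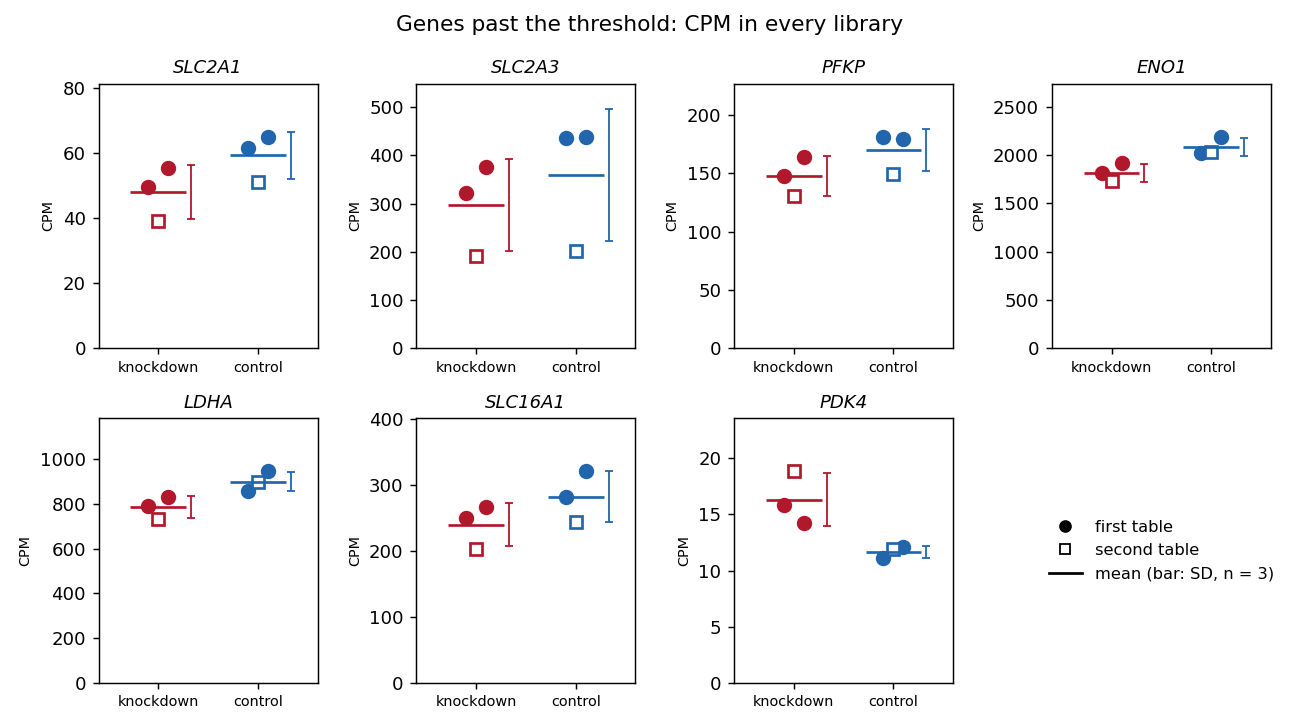
CPM of the 7 members that passed, by library, with knockdown left of control and the tables told apart by marker. ENO1, LDHA and PDK4 show no overlap between the groups, while SLC2A1, SLC2A3, PFKP and SLC16A1 overlap across tables and differ within each.

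At the entry of pyruvate into mitochondria, PDK4 rose. PDK4 (ENSG00000004799, chromosome 7, 95583499 to 95596516, minus strand) had 15.9, 14.3 and 18.8 CPM in knockdown libraries, against 11.1, 12.1 and 11.9 CPM in controls. Each knockdown library exceeded each control, and it averaged 16.3 ± 2.32 CPM in knockdown cells and 11.7 ± 0.529 CPM in controls (SD, n = 3 each). The log2 fold change was 0.47 (SE 0.13, edgeR adjusted p = 0.0296), and DESeq2 gave an adjusted p of 0.119. By the library left out, it was 0.201 (knockdown replicate 1), 0.301 (the second-table knockdown library), 0.0652 (control replicate 1), 0.0661 (control replicate 2) and 0.288 (the second-table control library). PDK3, the most abundant kinase gene, had 392, 377 and 288 CPM in knockdown libraries, against 380.4, 371 and 315 CPM in controls (-0.02, adjusted p = 0.912). PDK1 was at -0.05 (adjusted p = 0.856) and PDK2 at 0.08 (0.735). PDHA1, the catalytic subunit that these kinases phosphorylate, had 201, 217 and 208 CPM in knockdown libraries, against 233, 231 and 239 CPM in controls, with no overlap, and a log2 fold change of -0.17 (SE 0.05, edgeR adjusted p = 0.0921).

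Among the members, HIF1A and the other hypoxia targets did not pass. HIF1A, the oxygen-regulated HIF subunit, had 95.6, 96.3 and 76.6 CPM in knockdown libraries, against 115, 108 and 85.4 CPM in controls, lower within each table, and a log2 fold change of -0.20 (SE 0.06, edgeR adjusted p = 0.0733). Its regulation is known to lie largely in protein stability, which was not measured here. Of the other hypoxia targets, 0 of the 8 tested passed in edgeR, DESeq2 or limma-voom, and 1, BNIP3L, had an unadjusted p under 0.05. Over all genes tested, 2.47% passed in edgeR and 14.1% had an unadjusted p under 0.05. BNIP3L had 98.6, 94.7 and 113 CPM in knockdown libraries, against 87.1, 87.2 and 100.4 CPM in controls, higher within each table (0.16, adjusted p = 0.197), while BNIP3 had 44.7, 42.4 and 48.8 CPM in knockdown libraries, against 38.7, 48.2 and 53.4 CPM in controls (-0.04). EGLN1, the main oxygen-sensing hydroxylase, had 9.63, 8.64 and 20.02 CPM in knockdown libraries, against 12.0, 6.003 and 19.98 CPM in controls, and the tables differed more than the groups (0.01, adjusted p = 0.988). EGLN3 was at -0.28 (adjusted p = 0.358), with lower values within each table. VEGFA, the vascular growth factor, was at 0.04 (adjusted p = 0.849), and ADM, the vasodilator peptide adrenomedullin, at -0.02 (0.962). NDRG1, a stress-responsive gene, had 79.7, 96.2 and 109.8 CPM in knockdown libraries, against 102, 104 and 103.3 CPM in controls (-0.12, adjusted p = 0.418). P4HA1, a collagen prolyl hydroxylase subunit, had 34.8, 36.4 and 28.7 CPM in knockdown libraries, against 30.9, 37.2 and 40.3 CPM in controls (-0.11, adjusted p = 0.681). CA9, carbonic anhydrase 9, had 0 reads, under the floor of 0.206 to 0.276 CPM that 3 reads allow.

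Set side by side, the 17 glycolytic enzymes had 3 members lower, 14 not passing, 13 negative values and a median log2 fold change of -0.10. The 8 tested members among the other hypoxia targets had 0 called, 5 negative values and a median of -0.03, and the difference between the lists was not tested. Over all genes tested 2.47% were called. The SE ran from 0.05 (GAPDH) to 0.47 (ALDOA) over the 17 enzymes, with 0.05 to 0.06 for the 3 called, and from 0.06 to 0.16 over the 8 targets. A call thus depends on the SE of the gene as well as on its change. EGLN3, at -0.28 with an SE of 0.14, did not pass. Of the enzymes, 12 were negative in each table alone, as was 1 of the 8 targets. Leaving out knockdown replicate 1, control replicate 2 or either second-table library left 0 enzymes lower, and leaving out knockdown replicate 2 or control replicate 1 gave 5. The targets' median was 0.01 without the second-table knockdown library and 0.0094 without that of the controls. Without ALDOA and LDHB, 13 of 15 enzymes were negative, with a median of -0.12. As a share of all counted reads, the glycolytic enzymes took 0.769%, 0.802% and 0.773% in knockdown libraries, against 0.821%, 0.868% and 0.864% in controls. Their mean shares were 0.781 ± 0.0184% in knockdown cells and 0.851 ± 0.0260% in controls (SD, n = 3 each), and each knockdown library lay below each control. These shares are of raw reads, and the genes with most reads weigh most in them. In knockdown replicate 1, ENO1, PKM and GAPDH had 1814, 1221 and 1088 of the 7615 CPM of the enzymes. How often such sums do not overlap over other sets of genes was not examined, and the difference was not tested. The other hypoxia targets took 0.0384 ± 0.00449% in knockdown cells and 0.0381 ± 0.00407% in controls, with overlapping groups.

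**Figure D4:**
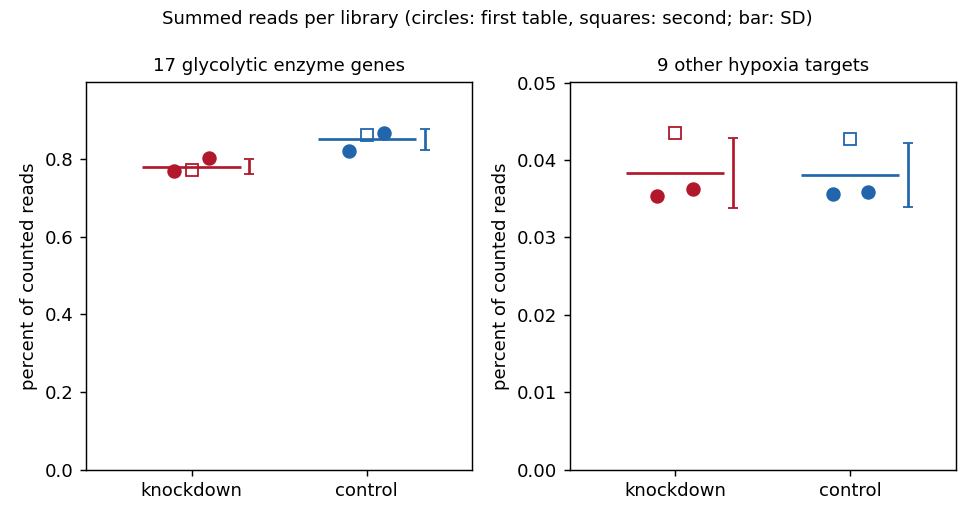
Share of all counted reads, in percent, taken by the glycolytic enzymes and by the other hypoxia targets in each library, knockdown left of control, with lines for means and bars for the SD. The enzymes' 3 knockdown shares lie below the 3 controls, and the targets' shares overlap. Genes with most reads weigh most in each share.

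Isozyme use was compared in 11 families, with 3 libraries a group, where an exact two-sided permutation test cannot give less than p = 0.10, so no family could pass. Each family was tested on the share of its first-named gene alone, with both tables pooled and no table term. The SDs and p-values of these shares therefore include the difference between the tables. HK1 held 85.9 ± 1.247% in knockdown cells and 83.9 ± 1.197% in controls of the hexokinase FPKM (SD, n = 3 each, exact permutation p = 0.20, adjusted p = 0.733). ENO1 held 96.1 ± 0.307% in knockdown cells and 96.6 ± 0.254% in controls (exact permutation p = 0.20, adjusted p = 0.733). SLC2A1 held 13.3 ± 2.10% in knockdown cells and 14.1 ± 4.18% in controls of its pair with SLC2A3 (exact permutation p = 0.90). PFKL held 37.1 ± 4.28% in knockdown cells and 34.9 ± 3.64% in controls of the phosphofructokinase FPKM (exact permutation p = 0.50). BNIP3 held 29.5 ± 3.69% in knockdown cells and 32.2 ± 3.52% in controls of its pair with BNIP3L (exact permutation p = 0.60). The other families, among them the aldolase and lactate dehydrogenase pairs that rest on ALDOA and LDHB, had exact permutation p-values of 0.10 to 0.90 and adjusted p-values of 0.733 to 0.90. The kinases were tested on PDK1, so the shares of PDK4 and PFKP, which passed as genes, were not tested. PDK4 held 9.95, 9.11 and 11.5% of the kinase FPKM in knockdown libraries, against 7.20, 8.02 and 7.38% in controls. PFKP held 36.4, 38.3 and 28.2% of the phosphofructokinase FPKM in knockdown libraries, against 39.9, 40.5 and 31.5% in controls.

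**Figure D5:**
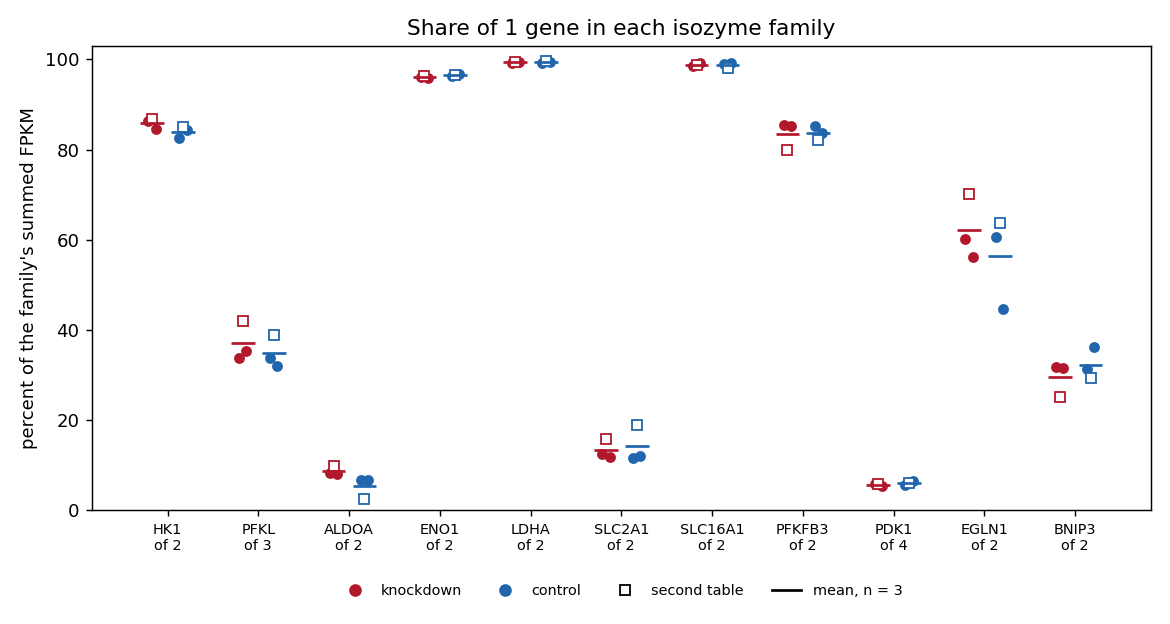
Share of the first-named gene in the summed FPKM of its family, in percent, for each library, with knockdown left of control. Circles are first-table libraries, squares second-table ones and lines means; HK1 averaged 85.9% in knockdown cells and 83.9% in controls, and EGLN1 varied most between libraries.

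No member's knockdown change passed a test of its difference between the tables. In an edgeR fit with a table by group term, 0 of 37 members passed, against 0.00734% of all genes, and the lowest adjusted p was 1.00. At an unadjusted p under 0.05 there were 3 members, P4HA1, NDRG1 and SLC2A3, against 4.61% of all genes. The log2 difference of P4HA1 was 0.07 among first-table libraries and -0.49 among those of the second. No other tool was run for that term.

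Beyond the 38 members, 8 genes of 7 related lists passed, 6 lower and 2 higher. Over all genes tested 1.83% were lower and 0.638% higher, shares that belong beside the counts of each list below. Of 11 tested further glycolysis genes (23 listed), 13 of the pentose phosphate pathway (14 listed) and 20 of the tricarboxylic acid cycle (20 listed), 0 passed in edgeR, DESeq2 or limma-voom, while 1, 3 and 2 had an unadjusted p under 0.05, against 14.1% of all genes. The median log2 fold changes of these 3 lists were -0.08, -0.07 and -0.05. Of 15 tested sugar and monocarboxylate transporters and their partners (19 listed, 1 of them not analysed here), 2 fell and 1 rose, with a median of -0.0029. SLC16A7, a monocarboxylate carrier related to SLC16A1, had 27.6, 25.4 and 17.03 CPM in knockdown libraries, against 38.2, 35.9 and 22.0 CPM in controls (log2 fold change -0.45, SE 0.09, edgeR adjusted p = 0.00368). EMB, embigin, an ancillary protein of these carriers, had 130.4, 131 and 106 CPM in knockdown libraries, against 154, 152 and 133 CPM in controls (log2 fold change -0.26, SE 0.06, edgeR adjusted p = 0.00528), and by the library left out its adjusted p was 0.129 (the second-table knockdown library) and 0.119 (the second-table control library). TXNIP, an arrestin-family protein that lowers glucose uptake, had 78.7, 54.1 and 137 CPM in knockdown libraries, against 41.3, 48.0 and 102 CPM in controls (log2 fold change 0.52, SE 0.08, edgeR adjusted p = 9.22e-05), with an adjusted p of 0.188 in DESeq2. The values of TXNIP were higher in knockdown within each table and overlapped across tables.

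Of 14 tested genes of pyruvate entry (15 listed), 1 fell, with a median of -0.11. It was ME1, the cytosolic malic enzyme (log2 fold change -0.28, SE 0.08, edgeR adjusted p = 0.0398). ME1 had 45.0, 47.4 and 31.9 CPM in knockdown libraries, against 51.8, 55.5 and 43.3 CPM in controls, lower within each table. Its adjusted p was 0.116 with DESeq2 and, by the library left out, 0.199 (knockdown replicate 1), 0.336 (the second-table knockdown library), 0.231 (control replicate 2) and 0.326 (the second-table control library). Of 18 tested components of the HIF pathway (19 listed), 1 rose and 1 fell, with a median of 0.05, and DESeq2 called 0 of the 18. EPAS1, the HIF-2 alpha subunit gene, had 55.2, 55.9 and 61.2 CPM in knockdown libraries, against 47.9, 43.1 and 49.3 CPM in controls (log2 fold change 0.29, SE 0.07, edgeR adjusted p = 0.0187). The groups of EPAS1 did not overlap, but DESeq2 gave an adjusted p of 0.0579, and by the library left out it was 0.110 (knockdown replicate 1), 0.0652 (knockdown replicate 2), 0.131 (the second-table knockdown library), 0.180 (control replicate 2) and 0.128 (the second-table control library). CITED2, which competes with HIF for its coactivators, had 66.5, 89.1 and 102.7 CPM in knockdown libraries, against 121, 110.5 and 119.5 CPM in controls (log2 fold change -0.46, SE 0.08, edgeR adjusted p = 0.000137), again with no overlap, and DESeq2 gave 0.207. Of 36 tested further hypoxia targets (40 listed), 2 fell and 34 did not pass, with a median of -0.04. TFRC, the transferrin receptor that brings iron into cells, had 187, 204 and 189 CPM in knockdown libraries, against 243, 254 and 232 CPM in controls (log2 fold change -0.33, SE 0.05, edgeR adjusted p = 0.000112), with no overlap. PLOD1, a collagen lysyl hydroxylase, had a log2 fold change of -0.21 (SE 0.06, edgeR adjusted p = 0.0443). DESeq2 gave PLOD1 an adjusted p of 0.133, and by the library left out it was 0.465 (knockdown replicate 1), 0.167 (the second-table knockdown library), 0.118 (control replicate 1), 0.139 (control replicate 2) and 0.153 (the second-table control library). With each library left out in turn, SLC16A7, TXNIP, CITED2 and TFRC passed every time.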

How the data were processed

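The members and lists were chosen with earlier results of these data known. The deposited counts are whole reads per gene, not normalized, and the deposited FPKM values equal count over listed length and library total, as recomputed. Per the submitters' processing notes, HISAT2, HTSeq and hg38 were used; no source used here gives versions, annotation or strand setting. The 4 libraries of the first table (19987 genes) and the 2 of the second (19973), whose columns name a group and no replicate, were joined on 19922 shared identifiers. Of these, 2734 had another listed length in the second table, 6 of them members (PDK3, SLC16A1, BNIP3, SLC16A3, PKM and CA9). Symbols came from the name table for 19875 genes and from the deposited tables for 47.

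For 13629 genes, counts entered the quasi-likelihood test of edgeR 4.0.16 under R 4.3.3 (TMM, filterByExpr, Benjamini-Hochberg adjustment over all genes, threshold 0.05) with table and group as terms. CPM values carry TMM factors, and differences within a table are of log2 CPM with a prior count of 2. Isozyme shares were compared by exact permutation in Python 3.11.15 with numpy 2.4.6. The script was tested on simulated data. Alternatives were the group alone, a replicate block, RLE factors, DESeq2 1.42.0, limma-voom (limma 3.58.1), 2 filters and each library left out. Leaving out ALDOA and LDHB, members of at least 10 CPM, and first-table lengths throughout were alternatives chosen after seeing the data. No library pair agreed within sampling noise (chi-square per gene 3.52 to 26.0). The 2 numbered pairs were not taken as paired (correlation of deviations 0.0118). Per-library values are given for members that passed, for the most abundant gene of each family and for others chosen after their values were seen. From the other lists, genes past the threshold are named. Coordinates are those of the tables; intervals and floors cover counting error only.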

Additional observations from a re-analysis of the deposited data

How the results depend on the processing

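Without the table term 0 genes were lower and 0 higher, and 0 members, 0 of them glycolytic enzymes, passed. With DESeq2 162 genes were lower and 24 higher, 5 members lower and 0 higher. In the first table alone 130 genes were lower and 24 higher, and 1 member was lower, 0 higher and 0 glycolytic enzymes lower. With no filter beyond 1 count 134 genes were higher. With a library left out, genes lower ran from 85 to 290, genes higher from 13 to 130, members lower from 0 to 9, members higher from 0 to 1 and glycolytic enzymes lower from 0 to 5, against 6 members lower, 1 higher and 3 enzymes with all libraries. The median log2 fold change of glycolytic enzymes then ran from -0.14 to -0.089, and that of other hypoxia targets from -0.063 to 0.013 (0.0099 in the first table alone).

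With the replicate block the calls were 263 lower and 99 higher over all genes, and the 7 members kept theirs (adjusted p 0.00576 to 0.0292). RLE factors, limma-voom and both filters kept the 7 as well. Log2 fold changes that turned sign in the first table alone were -0.027 for PFKL, -0.094 for PFKFB4, 0.041 for SLC16A3, 0.031 for PDK3, 0.0061 for BNIP3 and 0.065 for P4HA1, none past the threshold. With single libraries left out, those with a change of sign ran from -0.031 to 0.051 for PFKL, from -0.055 to 0.11 for ENO2, from -0.12 to 0.27 for LDHB, from -0.021 to 0.12 for PFKFB3, from -0.094 to 0.21 for PFKFB4, from -0.66 to 0.045 for SLC16A3, from -0.055 to 0.035 for PDK3, from -0.20 to 0.28 for EGLN1, from -0.14 to 0.046 for BNIP3, from -0.13 to 0.087 for ADM and from -0.24 to 0.069 for P4HA1. Of the isozyme shares, that of SLC16A1 changed sign as a log2 ratio of FPKM + 1 (-0.11), as did PFKFB3 (0.013); with a library left out the differences, in percentage points, ran -0.251 to 4.21 for PFKL, -2.13 to 1.61 for SLC2A1, -0.265 to 0.262 for SLC16A1, -1.12 to 1.71 for PFKFB3, -0.0990 to 9.48 for EGLN1. Families whose first-named gene was not among the 2 most abundant have no log2 ratio. Depth limits ALDOA and LDHB, at 4 to 48 reads, and CA9, at 0.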
